A study of Mus musculus with 3 samples.

Results

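The genes described here are 8 transcripts known as feedback regulators or transcriptional targets of ERK signalling, namely Spry2, Spry4, Dusp6, Spred1, Spred2, Etv4, Etv5 and Phlda1. They were selected on values measured in these libraries, namely summed UMI counts, shares of cells and correlations across cells, so those values are given as a description and no test is made on them. All 8 symbols were found once each among the 32285 genes listed. The data come from droplet single-cell RNA sequencing (3′ chemistry) of the mouse embryonic stem cell line E14 (129/Ola background), kept in medium with 15% serum and leukemia inhibitory factor, then trypsinised and frozen before the libraries were made. Cycloheximide, an inhibitor of translation elongation, was added at 250 µg/mL in 0.007% ethanol 24 h after plating. One library was made after 3 h of the drug and 1 after 6 h, and the control library came from cells given the ethanol carrier for 6 h. Each group was therefore 1 library of the same line, the 3 h library had no carrier control of its own duration, and no difference below has a replicate check.

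ERK is the last kinase of a cascade that runs from receptor tyrosine kinases through Ras, Raf and MEK. In embryonic stem cells it is driven largely by FGF4 acting on FGF receptors, and its activity moves cells away from naive self-renewal. Active ERK switches on genes that restrain the same cascade. Sprouty proteins (Spry2, Spry4) and the related Spred proteins (Spred1, Spred2) act on the steps between the receptor and Raf, and DUSP6 is a phosphatase that removes the activating phosphates from ERK in the cytoplasm. Etv4 and Etv5 encode ETS transcription factors of the PEA3 group that are induced by FGF signalling, and Phlda1 encodes a pleckstrin-homology-like protein induced by growth factors.

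Promoter sequence was not used to choose these genes, and it is shown to let a reader see what lies in front of 3 of the genes that were lowest at 6 h relative to the control. RefSeq windows on GRCm38.p6 were found for 5 of the 8 genes, with 6 windows in all because Etv5 had 2 starts. Below are the 250 bases before the RefSeq start site, 5′ to 3′ in the direction of the gene. The ETS core GGAA on either strand (TTCC when read on the opposite strand) is in capitals. The Spry2 window is chr14:105896820-105897069 (minus strand), that of Dusp6 is chr10:99262981-99263230 (plus strand) and that of Spred2 is chr11:19924192-19924441 (plus strand). In the GENCODE annotation Spred2 starts at 19924375, so the end of its window lies inside the gene there.
Spry2: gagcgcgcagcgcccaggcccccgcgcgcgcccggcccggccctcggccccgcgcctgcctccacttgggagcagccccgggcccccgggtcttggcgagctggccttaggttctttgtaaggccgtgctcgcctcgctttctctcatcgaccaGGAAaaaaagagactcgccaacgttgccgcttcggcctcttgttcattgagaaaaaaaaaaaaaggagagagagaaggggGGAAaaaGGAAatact
Dusp6: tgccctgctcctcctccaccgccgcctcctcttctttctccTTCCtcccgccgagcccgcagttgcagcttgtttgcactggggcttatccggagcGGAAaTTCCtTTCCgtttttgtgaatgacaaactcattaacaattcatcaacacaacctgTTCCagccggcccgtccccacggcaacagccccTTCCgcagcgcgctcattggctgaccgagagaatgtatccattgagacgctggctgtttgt
Spred2: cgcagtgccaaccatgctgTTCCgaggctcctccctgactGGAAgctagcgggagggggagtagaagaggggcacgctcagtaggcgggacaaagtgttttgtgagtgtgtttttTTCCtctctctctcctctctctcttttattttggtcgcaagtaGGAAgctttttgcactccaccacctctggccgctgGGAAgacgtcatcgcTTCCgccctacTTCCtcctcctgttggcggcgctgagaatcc

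The GGAA core was matched 3 times before Spry2, 6 times before Dusp6, 4 times before Spred1 and 7 times before Spred2. The 2 Etv5 windows held 4 matches and 0 matches. Among 32851 mouse promoter windows of the same length, 93.4% held at least 1 match, the median was 3 matches and 18.03% held 5 or more, so a match is common. The longer ETS motif CCGGAA, which contains the core, was in none of the 6 windows and in 12.0% of all windows. None of the 6 windows held the cyclic AMP response element TGACGTCA (1.55% of all windows), the AP-1 motif TGANTCA (6.75%) or the E-box CACGTG (6.02%), each searched on both strands. These are letter matches and not binding sites.

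Values were taken over barcodes with at least 15000 UMIs of which 1 to 20% were mitochondrial. This left 2187 control cells, 1739 cells from the 3 h library and 2554 from the 6 h library, with median depths of 43160, 51726 and 46200 UMIs, and 1 to 3 barcodes were shared by any pair of libraries. The mitochondrial share of UMIs was 4.57%, 3.52% and 2.94% in the same order. All 9 pluripotency markers lay above 10 CPM (counts of UMIs scaled to the same library total) in the mean of the libraries. Their summed levels were between 7201 and 8165 CPM. Most of each sum was Dppa5a, at 4771, 5327 and 5475 CPM in the control, 3 h and 6 h libraries. Dppa5a and Nanog were higher at 6 h than in the control. The other pluripotency markers were lower, such as Zfp42 at 455 CPM in the control and 240 CPM at 6 h. None of 9 lineage markers and none of 7 fibroblast markers lay above 10 CPM in that mean. Lineage markers summed to 17.9, 24.4 and 20.4 CPM. Fibroblast markers summed to 2.48, 1.62 and 1.29 CPM, with Col3a1, Lum and Postn at 0 in every library.

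The Sprouty genes kept the smallest parts of their control level at 6 h. Spry2 (ENSMUSG00000022114, chromosome 14, 105891947 to 105896819) was counted at 89.98 CPM in control cells (95% Poisson interval 88.2 to 91.8). After 3 h of the drug it was at 70.5 CPM (68.9 to 72.1), and after 6 h at 13.0 CPM (12.5 to 13.7). The 6 h library held 14.5% of the control level and 18.5% of the 3 h level. Against the control, its log2 ratio of CPM was -0.35 for the 3 h library (95% interval -0.39 to -0.31) and -2.79 for the 6 h library (-2.86 to -2.71). Between the treated libraries, 6 h against 3 h, it was -2.43 (-2.51 to -2.36). All intervals here cover counting error only.

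Spry4 (ENSMUSG00000024427, chromosome 18, 38586247 to 38601415) was counted at 51.9 CPM in control cells (50.5 to 53.2). The 3 h library held 28.5 CPM (27.5 to 29.5) and the 6 h library 3.97 CPM (3.65 to 4.31). It was already at 54.9% of the control at 3 h, the lowest of the 8 genes at that time, and at 7.65% at 6 h. Its log2 ratios to the control were -0.87 (-0.93 to -0.80) and -3.71 (-3.84 to -3.58). Among the 7608 genes that averaged 10 CPM or more over the libraries, the 6 h ratio of Spry4 to the control was in place 1 from the lowest and that of Spry2 in place 8. These places rest on values used to choose the genes, so nothing is read from them. Spry4 was under 10 CPM at 6 h and met that mean only through the control and 3 h libraries. The annotated genes Gm27369 and Gm27804 lie antisense within Spry4, and whether counting used strand is not given in the sources used here.

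The Spred genes, which encode membrane-anchored relatives of Sprouty, were lower at 6 h by less. Spred1 (ENSMUSG00000027351, chromosome 2, 117121374 to 117182279) was counted at 38.2 CPM in control cells (37.0 to 39.3), with 38.6 CPM in the 3 h library (37.4 to 39.8) and 18.9 CPM in the 6 h library (18.2 to 19.7). Its 3 h and control intervals overlapped, and the log2 ratio at 3 h was 0.016 (-0.046 to 0.079). At 6 h it held 49.6% of the control level, a log2 ratio of -1.01 (-1.08 to -0.94). Spred2 (ENSMUSG00000045671, chromosome 11, 19924375 to 20024026) was counted at 26.1 CPM in control cells (25.1 to 27.0), with 20.7 CPM in the 3 h library (19.8 to 21.5) and 8.74 CPM in the 6 h library (8.25 to 9.24). That was 79.3% of the control at 3 h and 33.5% at 6 h.

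Dusp6 (ENSMUSG00000019960, chromosome 10, 99263231 to 99267489), the ERK phosphatase gene, was near the control at 3 h and far below it at 6 h. Control cells held 36.6 CPM (35.5 to 37.8), the 3 h library 39.5 CPM (38.3 to 40.7) and the 6 h library 8.11 CPM (7.65 to 8.60). The 3 h library was at 107.7% of the control, and the sign of its small log2 ratio of 0.11 (0.044 to 0.17) turned to -0.068 when library totals were rescaled with TMM factors. At 6 h Dusp6 was at 22.1% of the control and 20.6% of the 3 h level, with log2 ratios of -2.18 (-2.27 to -2.08) and -2.28 (-2.38 to -2.19). The difference of Dusp6 therefore lay between the 3 h and 6 h libraries.

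The ETS factor genes differed from each other. Etv4 (ENSMUSG00000017724, chromosome 11, 101769742 to 101785371) was counted at 107.9 CPM in control cells (105.9 to 109.8), with 88.3 CPM in the 3 h library (86.5 to 90.1) and 66.3 CPM in the 6 h library (65.0 to 67.7). It stood at 81.8% of the control and then 61.5%, the latter a log2 ratio of -0.70 (-0.74 to -0.66). Etv5 (ENSMUSG00000013089, chromosome 16, 22381309 to 22439719) was counted at 80.1 CPM in control cells (78.5 to 81.8), with 69.9 CPM in the 3 h library (68.4 to 71.5) and 34.1 CPM in the 6 h library (33.2 to 35.1). It stood at 87.3% and then 42.6% of the control, the latter a log2 ratio of -1.23 (-1.28 to -1.18). The 2 intervals of the 6 h ratios did not overlap.

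Phlda1 (ENSMUSG00000020205, chromosome 10, 111506286 to 111508645) went the other way at 3 h. Control cells held 33.2 CPM (32.1 to 34.3), the 3 h library 58.2 CPM (56.8 to 59.7) and the 6 h library 35.5 CPM (34.5 to 36.5). Its log2 ratios to the control were 0.81 (0.75 to 0.87) and 0.097 (0.035 to 0.16), and the latter turned to -0.19 with TMM factors. The 6 h level was 61.0% of the 3 h level, so Phlda1 too was lower at 6 h than at 3 h. The annotated gene Gm28592 overlaps it on the opposite strand.

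**Figure D1:**
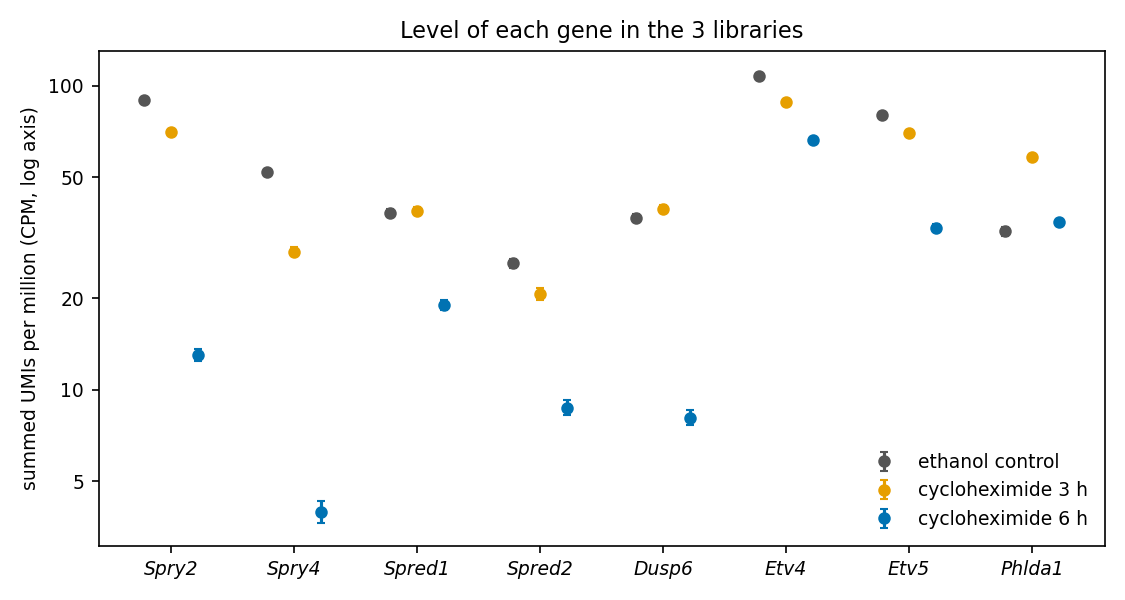
Level of each of the 8 genes in CPM (log axis) in the control, 3 h and 6 h libraries, 1 point per library with its 95% Poisson interval. The 6 h point is the lowest of the 3 for 7 genes, from 3.97 CPM for Spry4 to 66.3 CPM for Etv4, while Phlda1 is highest at 3 h with 58.2 CPM.

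Read together, 0 of the 8 genes were at least 2-fold lower at 3 h than in the control, where 0.513% of the 7608 genes were. At 6 h, 6 of 8 were at least 2-fold lower than in the control, against 2.41% of all genes, and 6 of 8 were at least 2-fold lower than at 3 h, against 0.657%. These are the contrasts on which the genes were chosen, so nothing is read from the excess. None was at least 2-fold higher in any of the comparisons, where 4.32% of genes at 3 h against control, 8.65% at 6 h against control and 0.145% at 6 h against 3 h were. All 8 passed the floor of 10 CPM. Their median log2 ratio was -0.24 at 3 h, -1.40 at 6 h and -1.14 between 6 h and 3 h, beside 0.11, 0.17 and 0.044 over all genes. Each pair of these comparisons shares 1 library.

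Spred1 and Etv5 lay close to the 2-fold line. By mean UMIs per cell instead of CPM, the log2 ratio of Spred1 to the control at 6 h was -0.90, and 5 genes stayed at least 2-fold lower. The same count was 5 without the limit on mitochondrial UMIs (Spred1 at -0.95) and after 10% free RNA had been subtracted (Spred1 at -0.97). Against the 3 h library that subtraction left 4 genes at least 2-fold lower, with Spred1 at -0.95 and Etv5 at -0.96. In the other direction, median-of-ratios factors put Etv4 at -1.002 against the control at 6 h, and 7 genes were then at least 2-fold lower. TMM factors moved all ratios by -0.17 at 3 h, -0.29 at 6 h and -0.11 between them, which put Spry4 at -1.04 for the 3 h library. Phlda1 alone changed sign against the control at 6 h under a change of scaling, and all 8 genes were below their 3 h level at 6 h under the CPM, TMM, median-of-ratios and UMIs-per-cell scalings.

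Summed over the 8 genes, the control library held 463.9 CPM, the 3 h library 414.1 CPM (89.3% of the control) and the 6 h library 188.8 CPM (40.7%). Cells were ranked by total UMIs and cut into 3 equal parts within each library. The parts are not matched in depth between libraries. At 6 h the summed level was 45.0%, 41.3% and 38.9% of the control in the lowest, middle and highest part. At 3 h it was 96.3%, 86.7% and 88.1%. Spry4 at 6 h ranged from 6.83% to 10.1% of the control over the 3 parts, Spry2 from 12.6% to 20.2% and Dusp6 from 19.8% to 24.9%. Etv4 ranged from 58.1% to 67.0%. Phlda1 at 6 h was at 126.7%, 97.1% and 105.3%, so its side of the control differed between parts.

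The 43 control barcodes just above the UMI limit had a summed level of 599 CPM and the 69 at 6 h had 242 CPM, while those just below it had 617 CPM (46 barcodes) and 217 CPM (50 barcodes). The 62 control barcodes left out for under 1% mitochondrial UMIs had 277 CPM in sum, with Spred1 at 11.5 CPM and Etv4 at 114 CPM. Just inside that limit, at 1 to 2%, the 36 control barcodes had 401 CPM in sum and the 133 barcodes at 6 h had 209 CPM, 52.2% of the control. Among these, Spred1 at 6 h was at 107.7% and Phlda1 at 161.5% of the control, where over all cells they were at 49.6% and 106.9%. In the control barcodes Spred1 was at 17.6 CPM (13.3 to 23.0), from 54 UMIs.

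The fraction of cells in which a transcript was seen was compared after each cell had been thinned to 15000 UMIs, which keeps all cells. Spry2 had a UMI in 70.1% of control cells (95% exact binomial interval 68.1 to 71.97). The share was 58.3% in the 3 h library (55.9 to 60.6) and 16.9% in the 6 h library (15.5 to 18.4). Spry4 had one in 50.6% (48.5 to 52.7), 31.8% (29.6 to 34.0) and 6.50% of cells (5.57 to 7.53). A second random thinning gave 5.33% for Spry4 at 6 h, outside that interval, which does not cover the thinning itself. Dusp6 had a UMI in 40.1% (38.1 to 42.2), 40.1% (37.8 to 42.4) and 11.3% (10.1 to 12.6). For these 3 genes the 6 h interval lay well under both others, and for Dusp6 the control and 3 h intervals overlapped almost entirely.

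Spred1 shares were 42.3%, 43.5% and 23.6%, and Spred2 shares were 31.2%, 27.5% and 11.6%. Etv4 was seen in 76.3%, 68.7% and 59.8% of cells, and Etv5 in 67.7%, 63.7% and 39.5%. Phlda1 was seen in 34.0% of control cells (32.0 to 36.0), in 47.7% of those treated for 3 h (45.3 to 50.1) and in 35.6% of those treated for 6 h (33.7 to 37.4), where the control and 6 h intervals overlapped. Unthinned shares were higher throughout, for example 93.8%, 87.8% and 41.6% for Spry2, and 81.3%, 66.4% and 16.1% for Spry4.

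Free RNA in the droplets, read from barcodes of 10 to 100 UMIs, held the same transcripts and was also lower at 6 h for 7 of the 8. Spry2 was at 98.4, 72.02 and 11.2 CPM there in the order control, 3 h and 6 h, and Spry4 at 65.3, 33.6 and 4.34 CPM. Dusp6 was at 38.1, 36.3 and 6.38 CPM, and its first pair of values rests on 137 and 120 UMIs with overlapping intervals. Phlda1 was the exception, at 18.9, 33.9 and 24.99 CPM, each below its level in cells. Etv5 was at 133, 113 and 39.8 CPM, above its level in cells, although at 6 h the interval (33.8 to 46.5) holds the level in cells. No cell type that should lack these genes was present to give a background share. These are therefore shares of barcodes with a UMI, and the part of free RNA in them was not tested.

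**Figure D2:**
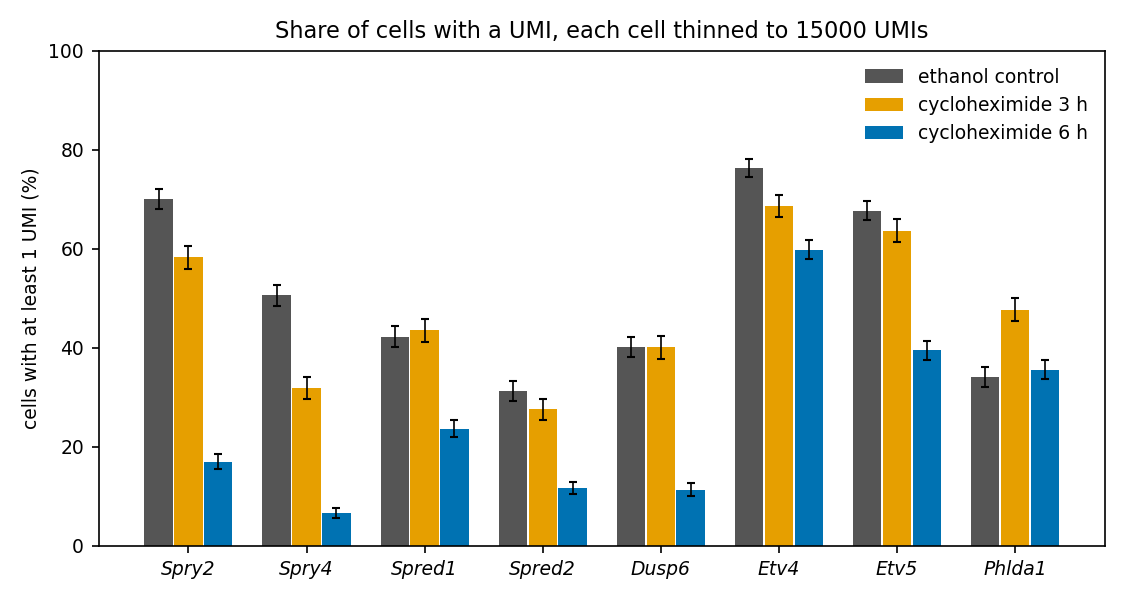
Share of cells with at least 1 UMI of each gene, in percent, after thinning every cell to 15000 UMIs, for the 3 libraries, with bars from 0 and lines for 95% exact binomial intervals. Spry2 goes from 70.1% in the control to 16.9% at 6 h and Spry4 from 50.6% to 6.50%, while Etv4 is still seen in 59.8% of cells at 6 h.

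A control cell thinned to that depth showed 4.12 ± 1.46 of the 8 genes (mean and SD over cells), a cell at 3 h showed 3.81 ± 1.54 and a cell at 6 h showed 2.05 ± 1.29. Cells with none of the 8 numbered 11 in the control (0.503%), 17 in the 3 h library (0.978%) and 251 in the 6 h library (9.83%). The median summed count of the 8 genes per thinned cell was 7 UMIs (control), 6 UMIs (3 h) and 2.5 UMIs (6 h). At 6 h, 9.16% of cells showed 4 of the genes and 2.94% showed 5, against 27.5% and 21.9% of control cells.

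**Figure D3:**
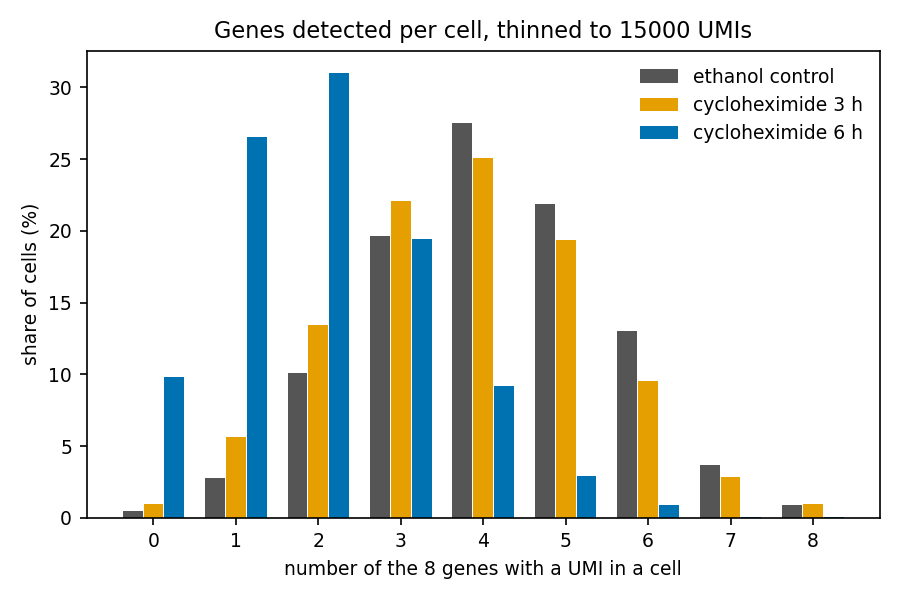
Distribution of the number of the 8 genes with a UMI in a cell (horizontal axis) as a share of cells in percent, each cell thinned to 15000 UMIs, for the 3 libraries. The control and 3 h distributions peak at 4 genes (27.5% and 25.1% of cells) and the 6 h distribution at 2 genes (31.0%).

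By the variance of thinned counts over their mean, which is 1 for counts that vary by sampling alone and depends on the level, Phlda1 had the highest values of the 8. They were 1.70 (control), 2.31 (3 h) and 1.67 (6 h). Up to 14, 16 and 11 UMIs of Phlda1 were found in single thinned cells. For the 7 others the ratio was between 1.02 and 1.38. Another measure was the squared coefficient of variation beyond sampling. At 6 h it was 2.48 for Spry4, 2.03 for Dusp6 and 1.24 for Phlda1. A second random thinning gave 0.76, 1.32 and 1.20 there, so no order at 6 h is read from this measure. In the control it was 0.32, 0.59 and 1.40 for the same genes. By variance over mean, in the order control, 3 h and 6 h, Spry2 had 1.21, 1.38 and 1.18, and Dusp6 had 1.34, 1.35 and 1.27. By that ratio Spred2 was nearest to sampling alone, with 1.09, 1.02 and 1.07. The second thinning gave it 1.08, 1.01 and 1.05, but Spry4 was then lower at 6 h, at 1.04.

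Correlation between the genes across thinned cells was weak in every library. Over the 28 pairs, Pearson's r of log2(1 + UMIs) in thinned cells had a median of 0.037 (control), 0.049 (3 h) and 0.053 (6 h). The highest pair reached 0.11 in the control (Spry4 with Spred1), 0.17 at 3 h (Spry4 with Phlda1) and 0.15 at 6 h (Spry2 with Spry4). In a second random thinning other pairs were highest, so which pair comes first depends on the draw. They were Spry4 with Dusp6 in the control (0.13), Dusp6 with Phlda1 at 3 h (0.16) and Spry2 with Phlda1 at 6 h (0.17). Counts of this size hold much sampling noise. In unthinned cells, scaled to 10000 UMIs, the medians were 0.075, 0.13 and 0.11, and cell depth is shared by the genes there. The highest unthinned values were 0.20 in the control and 0.35 at 3 h (both Spry4 with Dusp6) and 0.28 at 6 h (Spry2 with Phlda1), and 10, 20 and 16 of the 28 pairs were above 0.1. Among related genes, Spry2 and Spry4 had r of 0.066, 0.12 and 0.15 in the order control, 3 h and 6 h. Spred1 and Spred2 had 0.036, 0.040 and 0.053, and Etv4 and Etv5 had 0.020, 0.0029 and -0.0092. A second random thinning gave 0.074, 0.11 and 0.084 for Spry2 and Spry4, so no order is read from values this small.

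Some pairs had lower values in control than in treated cells. Phlda1 and Spry4 had r of -0.0022 in the control library, 0.17 in the 3 h library and 0.14 in the 6 h library, and a second thinning gave 0.0013, 0.11 and 0.11. With Spry2 the values were 0.045, 0.13 and 0.13, and with Dusp6 they were 0.054, 0.11 and 0.12. Spry2 and Dusp6 had 0.027, 0.15 and 0.11. Pairs of Phlda1 with Spred1 (0.012, 0.044 and 0.035) and with Spred2 (0.015, 0.022 and 0.053) stayed low. Unthinned, Phlda1 and Spry4 had 0.062, 0.26 and 0.24. Each value is 1 number per library over cells that share that library, and these pairs were singled out after their values were seen.

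**Figure D4:**
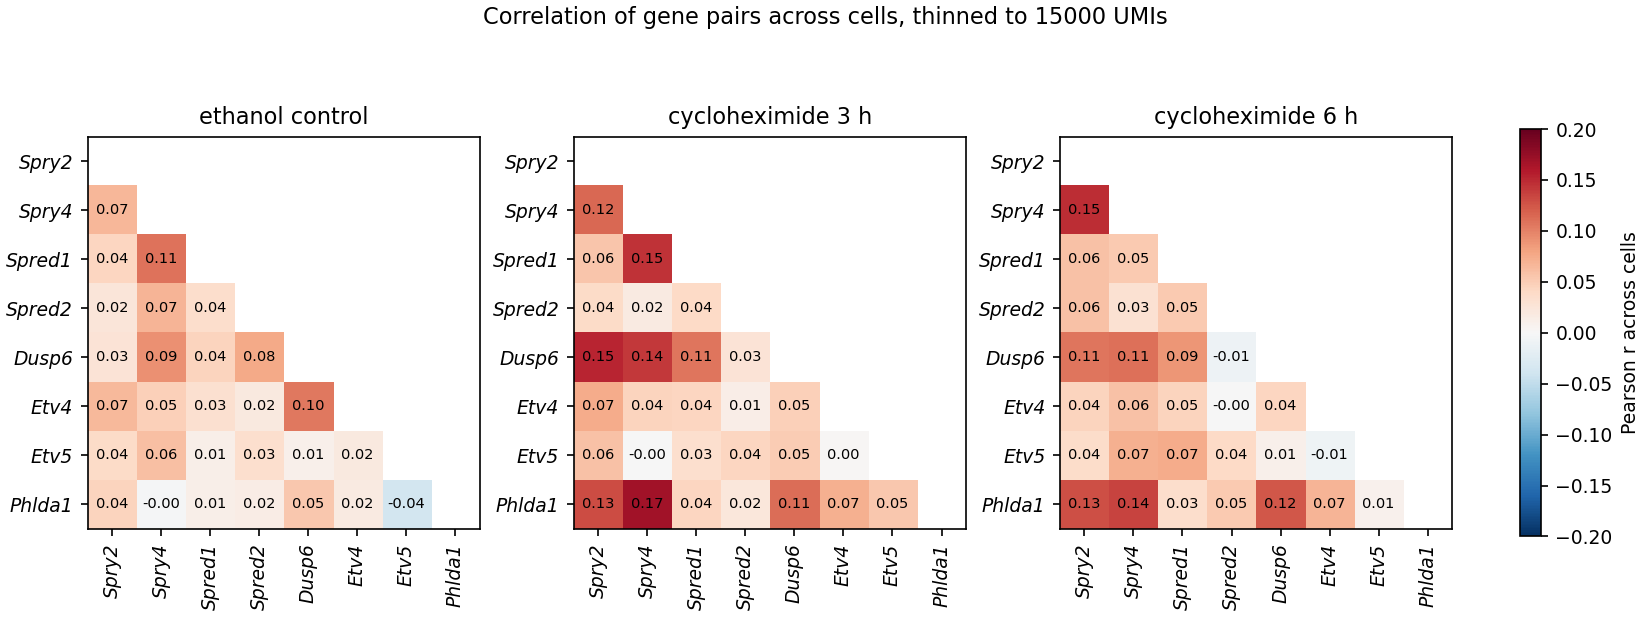
Pearson's r across cells for the 28 gene pairs in each library, on log2(1 + UMIs) after thinning to 15000 UMIs; colour runs from -0.2 to 0.2. The highest value is 0.17, and pairs of Phlda1 with Spry2, Spry4 and Dusp6 are above 0.1 at 3 h and 6 h and at most 0.054 in the control.

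Each gene was also set against the summed counts of the other 7, beside every other gene with at least 0.2 UMIs per thinned cell. In the control, Spry4 had r = 0.14 and was in place 6 when set among 6372 other genes, and Dusp6 had 0.14 (place 8). Phlda1 had 0.045 (place 1274) and Etv5 had 0.054 (place 628). At 3 h, Spry4 had 0.20 (place 9 among 6839 genes), Spry2 0.19 (place 9), Dusp6 0.19 (place 14) and Phlda1 0.18 (place 14). At 6 h, the same genes had 0.16, 0.15, 0.13 and 0.13 at places 7, 9, 19 and 8 among 6907 genes. Spry4, Spry2 and Dusp6 were among the first 33 in each library, whereas Etv5 was in places 628, 659 and 514. Co-expression was among the measures used to choose the genes.

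Outside the 8, the genes with the highest r with their summed counts in control cells were Gbx2 (0.16), Noct (0.16), Pabpc1 (0.15), Klf5 (0.15) and Jarid2 (0.15). At 3 h they were Noct (0.26), Klf5 (0.24), Enc1 (0.24), Rbpj (0.23) and Resf1 (0.22), and at 6 h G3bp2 (0.23), Utf1 (0.21), Klf5 (0.19), L1td1 (0.18) and Junb (0.18). Klf5 encodes a Krüppel-like factor of pluripotent cells and was the one gene present in all 3 sets. In the control and at 3 h the lowest values were about as large in size. They included Rps27a (-0.17) and Rps10 (-0.17) in the control and Rps18 (-0.24) and Rpl3 (-0.23) at 3 h, which encode ribosomal proteins. At 6 h the lowest values were smaller in size than the highest. They included the noncoding host gene Snhg1 (-0.14) and Hist1h2ap (-0.14). The 99th percentile over all genes was 0.10, 0.13 and 0.097. The summed counts themselves had r of 0.070, -0.051 and -0.046 with log2 of total UMIs per cell.

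Across the 3 libraries, the genes whose log2 ratios at 3 h and 6 h lay nearest to the medians of the 8 were Krt17, Tns3, Zfp36l1, Kifc3 and Itpk1, out of 5562 genes of at least 20 CPM. The nearest, Krt17, had 27.2, 23.1 and 10.9 CPM, and Zfp36l1, which encodes an RNA-binding decay factor, had 81.6, 71.2 and 34.6 CPM. This likeness rests on 3 libraries, and both ratios share the control.

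The upstream part of the pathway was described from lists of other genes. Among ligands and receptors, 4 of 12 passed the floor and all 4 were below the control at both times. Fgf4, the main ERK-activating ligand of these cells, was counted at 58.6 CPM in control cells (57.2 to 60.1), with 40.3 CPM in the 3 h library (39.1 to 41.5) and 36.8 CPM in the 6 h library (35.8 to 37.9). Its log2 ratios to the control were -0.54 and -0.67, so its 3 h and 6 h levels were close to each other. Igf1r was the only one past 2-fold, with 20.04, 12.7 and 9.41 CPM and a log2 ratio of -1.09 at 6 h. The median ratio of the 4 was -0.37 at 3 h and -0.39 at 6 h. Fgfr2 lay below the floor and was singled out after its values were seen: it held 1.01, 4.29 and 15.1 CPM in the order control, 3 h and 6 h. The ligand gene Fgf15, also below the floor and also chosen after its values were seen, held 5.41, 1.74 and 0.855 CPM, and its log2 ratio at 6 h was -2.66. That of Fgf8, at under 1 CPM in every library, was -2.01.

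None of the signal-carrying genes above the floor passed 2-fold in any comparison, neither 5 of 8 adaptors and exchange factors, nor 5 of 5 Ras genes and GTPase activators, nor 8 of 9 kinases and scaffolds. Their median log2 ratios at 6 h against control were -0.062, 0.12 and 0.15, beside 0.17 over all genes. Gab1, a docking adaptor, had 139 CPM in the control and 145 CPM at 6 h.

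Among other feedback genes, 3 of 10 passed the floor and none was past 2-fold. Dusp9, which had the most UMIs of them and also encodes an ERK phosphatase, was counted at 65.8 CPM in control cells (64.3 to 67.4), 66.2 CPM in the 3 h library (64.7 to 67.8) and 68.9 CPM in the 6 h library (67.6 to 70.3). Its log2 ratio at 6 h was 0.066 (0.023 to 0.11), where that of Dusp6 was -2.18. The other 2 above the floor, given to complete the list, were lower at 6 h than at 3 h. Dusp1, a nuclear MAP kinase phosphatase gene, had 18.4, 15.98 and 11.7 CPM and log2 ratios at 6 h of -0.65 against the control and -0.44 against 3 h. Etv1, a PEA3 group factor gene, had 30.3, 43.7 and 29.995 CPM and a log2 ratio of -0.54 against 3 h. The median of the 3 was -0.013 at 6 h against the control and -0.44 against 3 h.

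Among 9 of 12 other ERK-responsive genes above the floor, 1 was at least 2-fold lower and 3 were at least 2-fold higher at 3 h, and 3 were at least 2-fold lower at 6 h. Over all 7608 genes the shares were 0.513% lower and 4.32% higher at 3 h, and 2.41% lower at 6 h. Against 3 h, 5 of the 9 were at least 2-fold lower at 6 h, where 0.657% of all genes were. Egr1, an immediate early factor gene, had 12.9, 27.5 and 3.01 CPM, and Junb, an AP-1 subunit gene, had 55.6, 116 and 38.6 CPM. Ier2, with the most UMIs of the list, had 181, 530 and 262 CPM. Fos, another AP-1 subunit gene, had 45.4, 20.2 and 6.93 CPM, and Myc had 35.8, 25.6 and 6.78 CPM. The high 3 h level of Phlda1 was thus shared by Egr1, Ier2 and Junb, which had log2 ratios at 3 h of 1.09, 1.55 and 1.06. With TMM factors those of Egr1 and Junb were 0.92 and 0.89, under 2-fold.

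**Figure D5:**
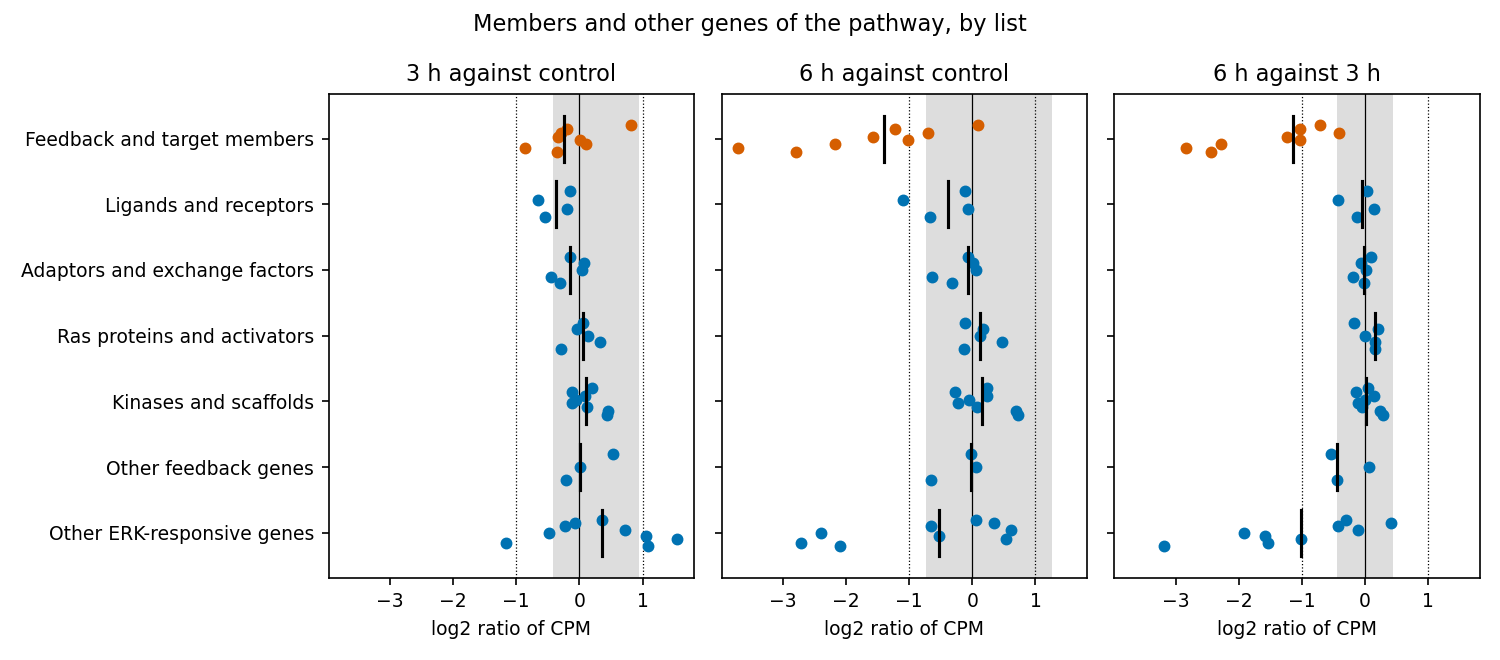
Log2 ratio of CPM for the 8 feedback and target genes (orange) and for other genes of the pathway above 10 CPM (blue, 1 point per gene), in the 3 comparisons; black bars are medians, grey marks the 5th to 95th percentile of all 7608 genes and dotted lines mark 2-fold. Between 6 h and 3 h the 8 genes and the other ERK-responsive genes have medians of -1.14 and -1.02, and the kinases and scaffolds 0.020.

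The genes differed in structure, which was not used to choose them. Spry2, Spry4 and Phlda1 had 2 exons in their longest coding transcript in GENCODE M21 and Dusp6 had 3, against a median of 9 over 7492 coding genes above the floor. Spred1 and Spred2 had 7 exons, and Etv4 and Etv5 had 13. Gene spans ran from 2360 bases for Phlda1 to 99652 bases for Spred2. Of the genes, the 3 with the lowest levels at 6 h relative to control, Spry4, Spry2 and Dusp6, had few exons, but so had Phlda1, which stood at 106.9% of the control.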

How the data were processed

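The authors deposited matrices of raw UMI counts for each gene in each droplet barcode. Cell Ranger 4 wrote them, per the file headers, and the submitters' processing notes name version 4.0.0 and build mm10. The annotation and strand setting are not given in the sources used here, and the matrices list all 6794880 barcodes. Gene positions come from GENCODE M21 on GRCm38 (32158 of 32285 identifiers matched). Counts were summed over barcodes with at least 15000 UMIs and 1 to 20% mitochondrial UMIs and scaled to CPM. The cells held 111447486 (control), 106842407 (3 h) and 140321458 UMIs (6 h). Promoter windows come from RefSeq on GRCm38.p6, cut to the 250 bases before the start. Doublets were not removed. Log2 ratios used a prior of 0.5 counts. With 1 library per group there was no test, and 95% intervals (exact Poisson, conditional binomial or Clopper-Pearson) cover counting error only. UMI thinning was without replacement. Ratios and thinning were checked on simulated data. The 8 genes, the gene lists and the naming rules were chosen with earlier results of these data known. Named pathway genes were those of at least 10 CPM and 2-fold different in any comparison, and the most abundant of each list, with Fgfr2, Fgf15, Fgf8, Dusp1, Etv1 and the named genes of lowest r added after their values were seen. Some genes that this rule names are not reported here. Also named were the 5 genes of highest r across cells in each library and the 5 nearest in ratios across libraries. Alternatives were TMM (edgeR 4.0.16, R 4.3.3), median-of-ratios factors, UMIs per cell, other UMI and mitochondrial limits, leaving out cells with over 2 times their library's median UMIs, subtraction of 10% free RNA, a prior of 5 counts, floors of 1 and 50 CPM, a fold of 1.5 and other thinning depths and correlations. Python 3.11.15, numpy 2.4.6, scipy 1.17.1 and pandas 2.3.3 were used.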

Additional observations from a re-analysis of the deposited data

Results flagged for a closer look

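Dusp6 had opposite signs at the 2 times against the same control, with counting intervals that left out 0 both times. The log2 ratios to the control were 0.11 (3 h) and -2.18 (6 h), and -2.28 separates them. This difference was not tested because there was only 1 library for each time, and the 3 h sign turned with TMM factors.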

How the results depend on the processing

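No paired analysis was possible because each group had 1 library. Of 216 recomputed ratios, 140 stayed within their counting interval and the others moved beyond it. The sign changed in the following. Dusp6 at 3 h became -0.068 with TMM and -0.075 with median-of-ratios factors, Phlda1 at 6 h became -0.19 and -0.20, and Etv5 at 3 h became 0.074 by UMIs per cell. Spred1 at 3 h, whose interval held 0, became -0.16, -0.17 and, with free RNA subtracted, -0.018. The number of genes at least 2-fold lower at 3 h went from 0 to 1 with TMM, median-of-ratios factors or a fold of 1.5 (Spry4). The number at least 2-fold higher at 3 h went from 0 to 1 by UMIs per cell or with a fold of 1.5 (Phlda1). Without thinning, the mean number of the 8 genes per cell was 6.43 (control), 6.46 (3 h) and 4.09 (6 h). The median r of gene pairs in the control, 3 h and 6 h libraries was 0.075, 0.13 and 0.11 in unthinned cells. It was 0.050, 0.076 and 0.078 when cells were thinned to the greater depth. With the second thinning seed it was 0.045, 0.064 and 0.070. The share of all genes at least 2-fold lower than the control ran from 1.498% (floor of 50 CPM) to 5.43% (median of ratios) at 6 h and from 0.272% to 0.857% at 3 h. The second thinning seed for pairs and genes per cell was chosen after seeing the data. At 6 h Spry4 had 0.072 UMIs per thinned cell, so its share there rests on few counts.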
